A study of Mus musculus with 7 samples.

Results

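PU.1 and MITF occupancy was examined at 44 genes that encode subunits of the vacuolar H+-ATPase (V-ATPase), lysosomal hydrolases and lysosomal membrane proteins, out of 22367 protein-coding genes of the GENCODE annotation on mm9. All 44 symbols were found in the annotation. A gene was counted as having a peak when a peak centre lay within 20 kb of any of its transcription start sites (TSSs). The 44 genes were picked by function, although earlier results of these data were known when they were. They comprised 5 subunits of the V0 sector, 9 subunits of the V1 sector or accessory proteins, 8 cathepsins, 7 proteins of membrane and lipid transport, 14 glycosidases and other hydrolases, and the autophagy receptor Sqstm1.

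The data were 7 ChIP-Seq libraries, 1 per condition, from primary bone marrow cells of C57BLACK6 mice aged 4 to 6 weeks. Every culture was grown for 3 days with 50 ng/mL CSF1, which gave myeloid precursors (MPs). RANKL at 100 ng/mL was then added for 36 h or for 72 h, the latter giving osteoclasts (OCs). PU.1 and MITF were each precipitated with 5 µg of antibody in all 3 states, and preimmune IgG was used as a non-specific control in MPs. No library was repeated, so a difference between states cannot be told apart from a difference between libraries. Cultures of this kind hold precursors beside fused cells, and a change in the mix of cells cannot be told apart from a change in occupancy per cell.

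The V-ATPase is a rotary proton pump. Its cytosolic V1 sector hydrolyses ATP, and its membrane V0 sector carries protons into the lysosome or, in OCs, across the ruffled border onto bone. Lysosomal hydrolases work at acid pH and are released by OCs to digest bone matrix. MITF and its relatives TFEB, TFE3 and TFEC are basic helix-loop-helix leucine zipper factors that bind E-boxes, chiefly CACGTG and CATGTG. The TCACGTG form recurs in promoters of lysosomal genes, where it is known as the CLEAR element. PU.1 is an ETS factor of myeloid cells that binds purine-rich sites around GAGGAA.

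The sequences below are examples of sites where MITF peaks lay and of promoters that hold E-boxes. All the promoters shown hold CACGTG, so their contrast with the peaks is set by the choice and is no result in itself. All are from the mm9 genome, 5′ to 3′. Capitals mark the E-box CACGTG, the E-box variant CATGTG and the PU.1-type sequence GAGGAA on either strand. GAGGAA reads TTCCTC on the opposite strand, and other ETS sites are not marked. The MITF peaks shown are 5 from OCs, 151 bases each with both ends counted and given on the plus strand, chosen as examples of loci listed for MITF in every state. They are chr8:13155533-13155683 upstream of Lamp1, chr3:95325229-95325379 upstream of Ctss, chr19:34590222-34590372 in an intron of Lipa, chr9:59392710-59392860 in an intron of Hexa, and chr7:149576239-149576389 upstream of Ctsd.
Lamp1 MITF peak: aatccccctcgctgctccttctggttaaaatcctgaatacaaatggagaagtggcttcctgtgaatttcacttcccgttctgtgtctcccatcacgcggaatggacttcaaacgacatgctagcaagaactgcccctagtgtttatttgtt
Ctss MITF peak: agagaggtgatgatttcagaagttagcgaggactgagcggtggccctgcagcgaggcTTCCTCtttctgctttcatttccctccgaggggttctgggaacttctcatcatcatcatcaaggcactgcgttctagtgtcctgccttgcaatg
Lipa MITF peak: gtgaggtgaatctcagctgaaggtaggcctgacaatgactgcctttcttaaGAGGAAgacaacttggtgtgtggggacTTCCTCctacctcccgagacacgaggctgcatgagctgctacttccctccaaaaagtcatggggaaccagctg
Hexa MITF peak: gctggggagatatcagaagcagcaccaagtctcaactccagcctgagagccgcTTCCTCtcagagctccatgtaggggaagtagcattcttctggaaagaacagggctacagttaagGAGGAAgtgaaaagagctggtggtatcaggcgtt
Ctsd MITF peak: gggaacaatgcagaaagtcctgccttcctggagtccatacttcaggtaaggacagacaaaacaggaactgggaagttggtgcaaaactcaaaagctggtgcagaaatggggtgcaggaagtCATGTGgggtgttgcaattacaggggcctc
None of the 5 held CACGTG, and the Ctsd peak held CATGTG. The promoters of 4 genes follow, from 150 bases before the TSS to 25 bases from it on, each on the strand of its gene. They are chr8:13158985-13159159 of Lamp1 on the plus strand, chrX:131135640-131135814 of Gla on the minus strand, chr11:100931176-100931350 of Naglu on the plus strand, and chr1:5073104-5073278 of Atp6v1h on the plus strand.
Lamp1 promoter: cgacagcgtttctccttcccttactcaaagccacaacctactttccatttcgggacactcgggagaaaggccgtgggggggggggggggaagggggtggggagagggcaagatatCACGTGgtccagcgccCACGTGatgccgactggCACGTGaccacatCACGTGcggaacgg
Gla promoter: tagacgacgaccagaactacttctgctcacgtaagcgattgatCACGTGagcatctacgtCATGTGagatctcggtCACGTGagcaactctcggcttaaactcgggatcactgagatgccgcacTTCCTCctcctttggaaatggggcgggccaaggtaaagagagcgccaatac
Naglu promoter: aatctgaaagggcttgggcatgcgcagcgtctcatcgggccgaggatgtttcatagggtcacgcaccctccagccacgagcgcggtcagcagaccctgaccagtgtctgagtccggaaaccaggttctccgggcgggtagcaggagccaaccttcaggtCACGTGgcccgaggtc
Atp6v1h promoter: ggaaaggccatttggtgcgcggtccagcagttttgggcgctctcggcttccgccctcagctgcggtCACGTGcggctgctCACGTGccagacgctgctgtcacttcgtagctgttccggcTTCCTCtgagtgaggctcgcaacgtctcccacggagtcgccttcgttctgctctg
The Lamp1 promoter held 4 copies of CACGTG, those of Gla and Atp6v1h held 2 each, and that of Naglu held 1. None of these 4 promoters lay under a MITF peak in any state.

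The 6 lists held between 71941 and 77072 PU.1 peaks and between 3540 and 5413 MITF peaks, and the IgG list held 349. Scores are tags in a peak as scaled by the peak caller, and 1 tag was worth 1.71, 1.48 and 1.47 score units for PU.1 in MPs, at 36 h and in OCs, and 1.04, 0.97 and 1.14 for MITF. The lowest listed peaks held 6 to 10 tags. Peaks were 150 bp wide at the median except PU.1 at 36 h (190 bp) and MITF at 36 h (169 bp, up to 1387 bp), so a 36 h score counts tags over a wider stretch. Of the markers of the cultured cells, all 5 myeloid genes (Csf1r, Itgam, Fcgr3, Tyrobp, Emr1) and all 5 OC genes (Nfatc1, Ctsk, Acp5, Itgb3, Tnfrsf11a) had PU.1 peaks in every state. Of 6 genes of other cell types, 4 to 6 had a PU.1 peak, with a median highest score of 18.4 to 23.6, and 0 had a MITF peak. MITF peaks were found at 4, 3 and 4 of the 5 myeloid genes and at 3, 3 and 2 of the 5 OC genes in MPs, at 36 h and in OCs.

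Every one of the 44 lysosome and V-ATPase genes had a PU.1 peak in MPs, at 36 h and in OCs. Among all protein-coding genes the shares were 73.3%, 73.1% and 73.5%, and 15413 genes (68.9%) had a PU.1 peak in all 3 lists. Other sets of broadly expressed genes came close to that share. Of 82 ribosomal protein genes 96.3%, 97.6% and 96.3% had a PU.1 peak, and of 86 oxidative phosphorylation genes 96.5%, 96.5% and 94.2% did.

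The height and number of the PU.1 peaks set the lysosome and V-ATPase genes further from genes as a whole. The median of the highest PU.1 score per gene was 126 in MPs, 106 at 36 h and 112 in OCs. Over all genes that had a peak it was 52.9, 50.3 and 54.3, over the ribosomal protein genes 49.5, 48.8 and 50.7, and over the oxidative phosphorylation genes 46.1, 44.3 and 47.0. Tall peaks were not particular to the 44 genes. The median was 86.2, 86.4 and 93.2 over 26 other lysosomal enzymes and proteins. Over 22 other lysosomal membrane and sorting proteins it was 102, 96.8 and 98.4. It was higher than at the 44 genes for the 5 myeloid genes (201, 168 and 179) and the 5 OC genes (154, 146 and 160). Over 11 other V-ATPase subunit genes it was 76.8, 51.7 and 52.9, and over 19 autophagy and nutrient signalling genes 68.2, 66.5 and 70.5. The lysosome and V-ATPase genes had a median of 6, 5 and 5.5 PU.1 peaks within 20 kb, against 3 in each state for all genes with a peak. The stretch of genome searched was similar, at a median of 42.3 kb per lysosome or V-ATPase gene and 40.1 kb per gene overall.

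MITF peaks were found at 20 of the 44 genes in MPs (45.5%), at 16 at 36 h (36.4%) and at 19 in OCs (43.2%). The shares over all protein-coding genes were 15.6%, 11.0% and 13.6%, so the ratios to background were 2.91, 3.29 and 3.18. Ribosomal protein genes (11.0%, 12.2% and 11.0%) and oxidative phosphorylation genes (10.5%, 8.14% and 11.6%) sat near that background. The IgG list had a peak at 0 of the 44 genes, against 0.617% of all genes.

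**Figure D1:**
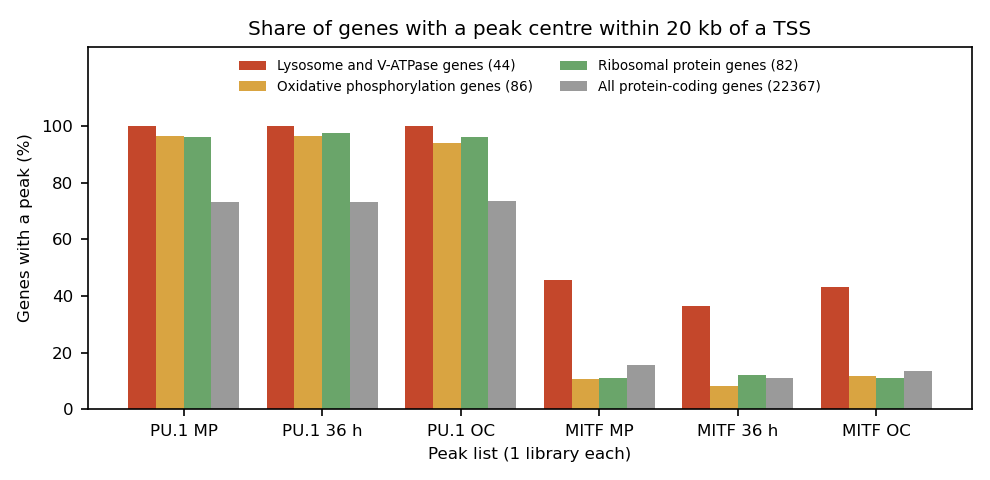
Bars give the percentage of genes with a peak centre within 20 kb of a TSS (vertical axis) in each of the 6 peak lists (horizontal axis, 1 library each), for 4 gene sets. The lysosome and V-ATPase bars reach 100% for PU.1, close to the ribosomal and oxidative phosphorylation bars, and 36.4 to 45.5% for MITF, where those 2 sets lie at 8.14 to 12.2%.

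Over the 3 states, 13 of the 44 genes (29.5%) had a MITF peak in every list, against 7.42% of all genes. They were Atp6v0a1, Atp6v0c, Atp6v1c1, Ctsb, Ctsd, Ctss, Lamp1, Scarb2, Hexa, Lipa, Man2b1, Psap and Sgsh. A further 5 genes were in 2 lists and 6 in 1 list, and 20 (45.5%, against 79.5% of all genes) had no MITF peak in any state.

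**Figure D2:**
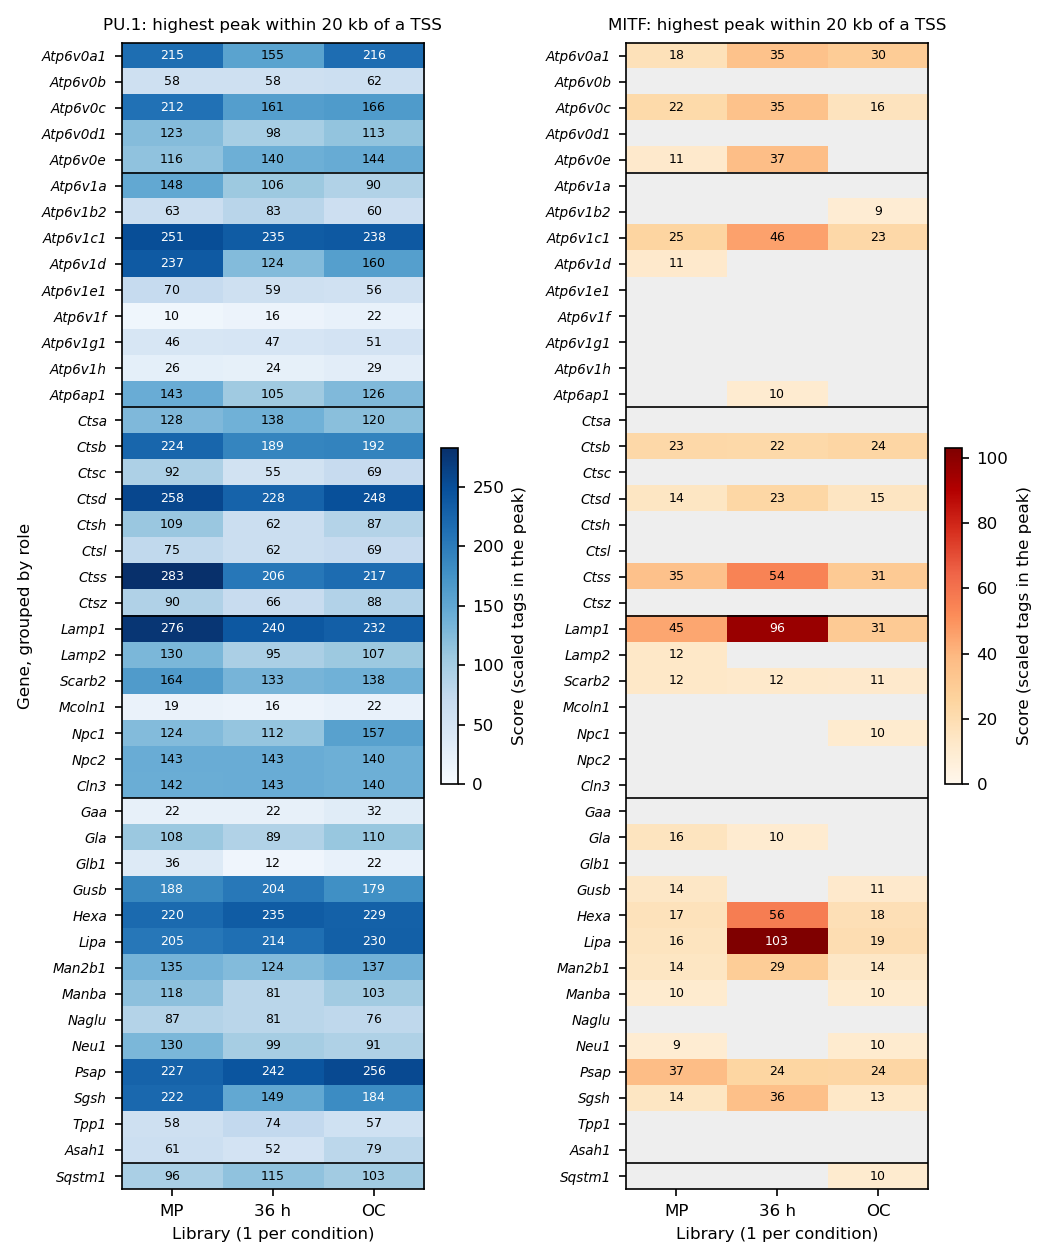
Each cell gives the highest score of any peak within 20 kb of a TSS of 1 gene (rows, grouped by role and divided by black lines) in 1 library (columns), for PU.1 on the left and MITF on the right. Grey cells have no peak, and the colour scales differ between the panels. PU.1 scores run from 10.2 at Atp6v1f to 283.2 at Ctss, and the highest MITF scores are the 36 h values of Lipa (103.2) and Lamp1 (96.4).

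The V0 sector genes had MITF peaks at 3 of 5 genes in MPs, 3 at 36 h and 2 in OCs. Atp6v0a1, the subunit a isoform that forms the proton path with the rotor ring, had a MITF peak outside the gene at chr11:100856107-100856280, 14571 bp upstream of a TSS, with scores of 17.7 in MPs, 35.0 at 36 h and 29.7 in OCs. PU.1 scores at that site were 214.9, 155.2 and 215.9. Atp6v0c, which encodes the proteolipid of the rotor ring, had a MITF peak beside a TSS in every list, with scores of 21.8, 35.0 and 16.0. Its centre lay 95 bp upstream (chr17:24303963-24304157), in an intron of another transcript by annotation. Atp6v0e, a small membrane subunit, had one 14378 bp upstream (chr17:26798827-26799064) with scores of 11.4 in MPs and 37.0 at 36 h and none listed in OCs. Atp6v0b and Atp6v0d1 had no MITF peak. Their highest PU.1 scores were 58.0, 57.6 and 61.7 for Atp6v0b and reached 122.8 in MPs for Atp6v0d1.

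Of the 9 V1 and accessory genes, 2 had MITF peaks in each state and 4 in any state. Atp6v1c1, a subunit that joins the V1 stalk to the membrane sector, was the only one with MITF in every list. Its shared locus lay 8802 bp upstream (chr15:38582754-38582954) and scored 24.9, 45.7 and 22.8. A second MITF peak 17321 bp upstream (chr15:38574263-38574413), over a PU.1 peak of 250.8, was listed in MPs alone with a score of 20.8. The other 3 genes had 1 MITF peak in 1 list each, all within a few tags of the lowest listed score. Atp6v1d of the central stalk scored 11.4 in MPs (chr12:79969186-79969336), the accessory subunit gene Atp6ap1 scored 9.7 at 36 h (chrX:71545208-71545358), and Atp6v1b2, the B subunit of the catalytic head, scored 9.1 in OCs (chr8:71627090-71627240). Atp6v1a, the catalytic A subunit, had no MITF peak, although PU.1 scored 148.4 in MPs within its window. Atp6v1f had the lowest PU.1 score of the 44 genes in MPs, with highest scores of 10.2, 16.3 and 22.0 over the states, and Atp6v1h stood at 25.6, 23.7 and 29.4.

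Of the 8 cathepsins, the same 3 had MITF peaks in all states. Ctss, a cysteine protease of antigen-presenting cells, held the highest PU.1 score of all 44 genes (283.2 in MPs) at a site 5396 bp upstream (chr3:95325217-95325408). MITF there scored 35.3, 54.5 and 30.8. A second Ctss locus lay on the TSS (chr3:95330612-95330780) and was listed with MITF scores of 11.7 at 36 h and 11.4 in OCs. Ctsb, a cysteine protease with broad substrates, had an intronic locus 6774 bp from its TSS (chr14:63748001-63748177) with scores of 22.9, 22.4 and 24.0. Ctsd, the main aspartic protease of the lysosome, had MITF scores of 13.5, 23.4 and 12.6 at 2338 bp upstream (chr7:149576186-149576397). It had 3 more loci further upstream, of which the one at 10112 bp (chr7:149583977-149584130) scored 14.5 in MPs and 14.8 in OCs over PU.1 peaks of 257.6 and 248.2. Ctsa, Ctsc, Ctsh, Ctsl and Ctsz had PU.1 peaks of up to 137.5 but no MITF peak.

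Among the membrane and lipid transport genes, Lamp1, a major glycoprotein of the lysosomal membrane, had 1 MITF locus at 3537 bp upstream (chr8:13155489-13155707). Its scores of 44.7, 96.4 and 30.8 were the highest for the 44 genes in MPs and, with Ctss, in OCs. PU.1 scored 276.3, 239.5 and 232.0 at that site. Scarb2, the receptor that carries glucocerebrosidase to the lysosome, had a MITF peak 3575 bp upstream (chr5:92938132-92938302) with near-equal scores of 11.4, 11.7 and 11.4. A second Scarb2 locus in an intron (chr5:92933344-92933494) was listed in MPs alone, with a score of 12.5. Lamp2 had a MITF peak in MPs alone (12.5, chrX:35814206-35814356) and the cholesterol transporter gene Npc1 in OCs alone (10.3, chr18:12388639-12388789). Mcoln1, a calcium channel of the lysosome, Npc2 and Cln3 had none. The PU.1 scores of Npc2 (143.3, 143.4 and 139.5) were nonetheless well above those of Mcoln1 (18.8, 16.3 and 22.0).

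MITF peaks were found at 9 of the 14 glycosidase and other hydrolase genes. Hexa, the α-subunit of β-hexosaminidase, had 3 intronic loci. Those at 5332 bp (chr9:59392710-59392909) and 11526 bp (chr9:59398899-59399118) from the TSS were in all lists, with scores of 16.6, 56.5 and 18.3 and of 13.5, 53.5 and 13.7. The one at 2141 bp (chr9:59389544-59389698) scored 16.6 in MPs and 14.8 in OCs and was not listed at 36 h. Lipa, the acid lipase that hydrolyses cholesteryl esters, had an intronic locus 11644 bp from its TSS (chr19:34590172-34590468) at which MITF scored 15.6, 103.2 and 19.4, while PU.1 scored 204.7, 214.3 and 230.5.

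Psap, the precursor of the saposins that assist sphingolipid breakdown, had the highest PU.1 score of the 44 genes in OCs (255.5). MITF at that site (chr10:59736218-59736382) scored 37.4 in MPs and 24.3 at 36 h and was not listed in OCs. A neighbouring site 3586 bp upstream (chr10:59736714-59736875) scored 15.6, 10.7 and 24.0, so the OC peak was the highest there. Man2b1, an α-mannosidase, had an intronic locus (chr8:87608633-87608805) with scores of 14.5, 29.2 and 13.7. Sgsh, a heparan sulfate sulfatase, had one intronic peak in MPs and at 36 h (14.5 and 36.0, chr11:119213525-119213717) and a different one in OCs (12.6, chr11:119216247-119216397).

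The remaining 4 hydrolase genes with MITF scored between 9.1 and 15.6. Gusb (β-glucuronidase) scored 13.5 in MPs and 11.4 in OCs in an exon at its TSS (chr5:130478805-130478977), and Gla (α-galactosidase A) scored 15.6 in MPs and 9.7 at 36 h (chrX:131117628-131117782), at a site whose nearest TSS is that of Btk. Manba (β-mannosidase) scored 10.4 and 10.3 in MPs and OCs (chr3:135140021-135140183), and both loci of the sialidase gene Neu1 (chr17:35061631-35061797 and chr17:35071834-35072014) lay between 9.1 and 10.3. Gaa (acid α-glucosidase), Glb1 (β-galactosidase), Naglu (α-N-acetylglucosaminidase), Tpp1 (a tripeptidyl peptidase) and Asah1 (acid ceramidase) had none. Sqstm1, which brings ubiquitinated cargo to autophagosomes, had 2 MITF peaks in OCs alone (10.3 at chr11:50037993-50038143 and 9.1 at chr11:50042789-50042939), both nearer to a TSS of Mgat4b.

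The 20 genes without MITF spanned a wide range of PU.1 scores. Cln3, a membrane protein of the lysosome whose loss causes a neuronal storage disease, scored 141.6, 143.4 and 139.5 in MPs, at 36 h and in OCs, and Ctsa, the protective protein of the sialidase complex, scored 127.9, 137.5 and 120.4. Naglu scored 87.0, 81.3 and 76.4, Tpp1 58.0, 73.9 and 57.3, and Asah1 61.4, 51.7 and 79.3. The collagen-degrading cysteine protease gene Ctsl stood at 75.1, 62.1 and 69.0. At the low end, Gaa scored 22.2, 22.2 and 32.3 and Glb1 35.8, 11.8 and 22.0. The highest PU.1 scores without MITF in any state thus lay above the highest scores of several genes with MITF, such as Gla (107.5 in MPs) and Man2b1 (134.8 in MPs). At the MITF site of Man2b1 itself PU.1 scored 83.6 in MPs.

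When the peaks of each factor were merged over the 3 states, the 44 genes had 321 PU.1 loci and 40 MITF loci. Of the PU.1 loci, 171 (53.3%, against 50.5% in the whole genome) were listed in all 3 states. Of the MITF loci, 13 (32.5%, against 26.2%) were. Second MITF loci of Atp6v0a1, Atp6v0c, Ctsb and Lipa, not given above, were listed in MPs alone, with scores of 9.3, 12.5, 12.5 and 9.3. MITF peaks within 1 kb of a TSS were found at 9.09%, 6.82% and 11.4% of the 44 genes in MPs, at 36 h and in OCs. The shares of all protein-coding genes were 2.39%, 1.44% and 1.85%. Of the 40 MITF loci, 7 lay within 1 kb of a TSS, 12 at 1 to 5 kb and 21 at 5 to 20 kb, which are bands of unequal width. By annotation 14 were intronic, 3 exonic and 23 outside the gene, and for 36 of the 40 the nearest TSS was that of the lysosome or V-ATPase gene.

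The MITF peaks lay on PU.1 sites whose scores were mostly high, although some strong PU.1 sites had none. All 32 MITF peaks in MPs overlapped a PU.1 peak of the same state (95% Wilson interval 89.3 to 100%), as did 18 of 19 at 36 h (75.4 to 99.1%) and all 26 in OCs (87.1 to 100%). Over all MITF peaks the shares were 98.1%, 94.7% and 93.4%, so this overlap was a feature of the MITF lists as a whole. The PU.1 peaks under MITF at the 44 genes had median scores of 188, 168 and 162, against 30.7, 29.6 and 29.4 for their PU.1 peaks without MITF. The medians of PU.1 under all MITF peaks were 148, 139 and 137. The intervals cover counting error only.

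A high PU.1 score was not always accompanied by MITF. Among the 10% of PU.1 peaks with the highest scores in the genome, 47, 50 and 48 lay at the 44 genes, and 57.4%, 34.0% and 47.9% of these overlapped MITF, against 54.6%, 38.3% and 41.3% of all peaks in that class. Among the other PU.1 peaks the shares at the 44 genes were 2.55%, 0.549% and 1.43%, against 1.51%, 0.831% and 1.29%. The lowest PU.1 peak under MITF scored 60.2, at Atp6v1b2 in OCs. The highest PU.1 peak in OCs without MITF was the one 4080 bp upstream of Psap (255.5), followed by one 17317 bp upstream of Atp6v1c1 (237.9).

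**Figure D3:**
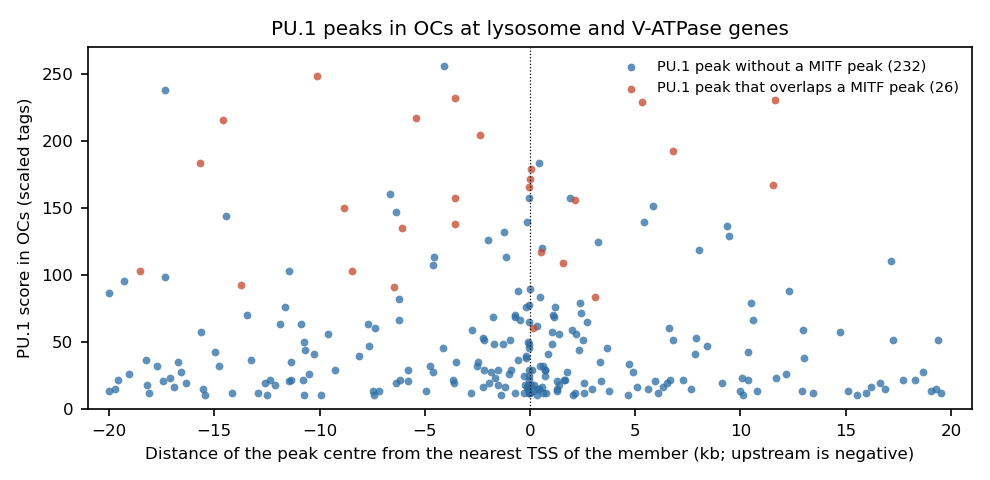
Points are the 258 PU.1 peaks of OCs at the 44 genes, placed by the distance of the peak centre from the nearest TSS of the gene in kb (horizontal axis, upstream negative) and by PU.1 score (vertical axis). The 26 red points overlap a MITF peak of OCs, and they score between 60.2 and 248.2 at distances on both sides of the TSS, while most blue points (without MITF) crowd below them.

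Because the 44 genes had taller PU.1 peaks than most genes, the share with MITF was also set beside that of genes with PU.1 peaks of like height. All genes with a PU.1 peak were divided into 5 classes of about equal size by their highest PU.1 score in the same state. In MPs 22 of the 44 genes fell in the highest class (126.2 to 395.7), and 17 of them (77.3%) had MITF, against 76.3% of all 3299 genes in that class. At 36 h the values were 14 of 21 (66.7%) against 58.6%, and in OCs 15 of 21 (71.4%) against 64.9%. In the next lower class they were 3 of 12 against 23.6% of all genes in MPs, 2 of 11 (18.2%) against 12.7% at 36 h, and 3 of 13 (23.1%) against 662 of 3311 genes in OCs. Below that, 1 of the 44 genes had MITF in any state, Atp6v1b2 in OCs. At like PU.1 height the shares therefore differed by at most a few genes in each class, and no test was run on these differences.

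**Figure D4:**
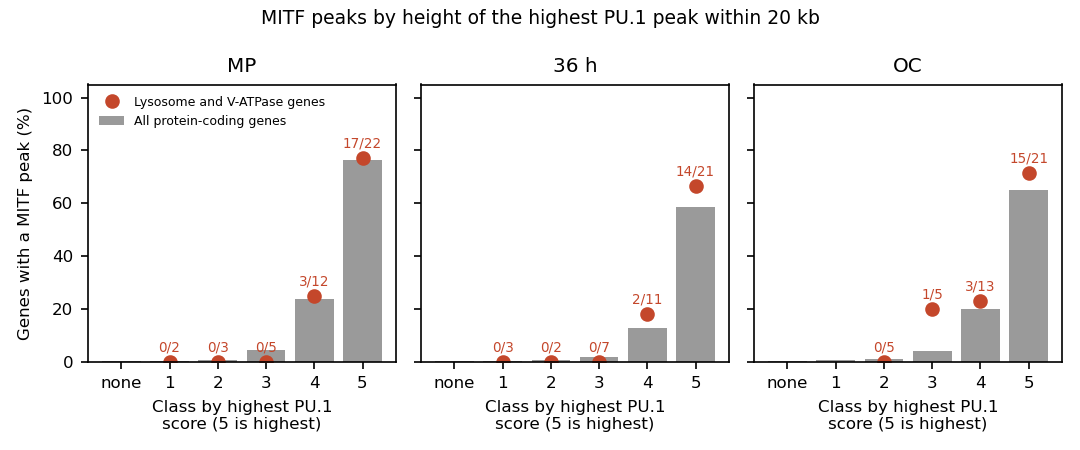
For each state, grey bars give the percentage of all protein-coding genes with a MITF peak within 20 kb (vertical axis) by class of their highest PU.1 score (horizontal axis, 5 classes of about equal size, "none" for genes without a PU.1 peak). Red points give the same for the lysosome and V-ATPase genes, with the number having MITF over the number in the class. Bars and points rise together, to 17 of 22 (77.3%) against 76.3% in the highest class in MPs, and the widest gap is 1 of 5 genes against 3.97% in class 3 of OCs.

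None of the MITF peaks at these genes held CACGTG, while some held CATGTG. Within 100 bp of the centre, on either strand, CACGTG was found in 0 of 32 peaks in MPs, 0 of 19 at 36 h and 0 of 26 in OCs, against 2.94%, 2.91% and 2.44% of all MITF peaks. With 3 counts as the limit, 0 of 26 allows a share of up to 11.5%. CATGTG was found in 6, 3 and 5 of them, and CACGTG or CATGTG together in 18.8%, 15.8% and 19.2%, against 17.0%, 15.3% and 15.4% of all MITF peaks and 14.1% of IgG peaks. Within 50 bp of the centre the shares were 9.38%, 10.5% and 15.4%, against 8.37%, 7.14% and 7.31%. The longer form TCATGTG, which contains CATGTG, was found in 3, 2 and 3 peaks (9.38%, 10.5% and 11.5%, against 5.04%, 3.85% and 4.19% of all MITF peaks). These lay at Ctsd in all states, at the TSS of Ctss at 36 h and in OCs, and at Sgsh in MPs.

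The PU.1-type sequence GAGGAA was more frequent than the E-boxes, and ETS sites without it were not counted. GAGGAA was found in 75.0%, 73.7% and 80.8% of the MITF peaks at the 44 genes and in 69.9%, 71.4% and 70.1% of all MITF peaks, against 14.1% of IgG peaks and 57.9%, 58.8% and 58.7% of all PU.1 peaks. GAGGAAGT, which contains it, was found in 34.4%, 42.1% and 46.2%, against 34.3%, 34.1% and 31.9%. GAGGAA was added to the search after the peaks had been inspected.

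The promoters of the same genes were rich in E-boxes. In the 300 bases from 250 before to 50 after a TSS, CACGTG was found for 20 of the 44 genes (45.5%) against 13.1% of all protein-coding genes, counting every annotated TSS. TCACGTG, the form with the flanking T and a subset of CACGTG, was found for the same number, 20, against 6.75%. TCATGTG was found for 11 of the 44 against 7.52%. The full palindromic CLEAR consensus was found for Cln3 alone (2.27% against 0.501%). With the upstream-most TSS of each gene only, 16 genes (36.4%) held CACGTG against 7.78%.

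No MITF peak in any state lay over a promoter that held CACGTG. Of the 20 genes with such a promoter, 8 had a MITF peak somewhere within 20 kb and 1, Sgsh, had one within 1 kb of a TSS. Of the 24 genes without, 16 had a MITF peak within 20 kb and 5 within 1 kb. This split was not made for all protein-coding genes, so it has no background to be read against. A MITF peak within 1 kb was rare in general, at 2.39%, 1.44% and 1.85% of all genes in MPs, at 36 h and in OCs. Whether MITF avoids promoters with CACGTG was not tested. PU.1 peaks were within 1 kb of a TSS at 18 of the 20 and at 21 of the 24. PU.1 peaks within 1 kb that themselves held TCACGTG were found at Atp6v0e, Atp6v1g1, Atp6v1h and Gla, with scores from 11.7 at Atp6v0e to 88.7 at Gla. The Atp6v1h site sits on the promoter printed above and scored 25.6, 23.7 and 29.4. The match of letters is a description and does not mark a bound site.

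Tags at peaks shared by 2 states were compared with an exact binomial test against the median ratio of all shared pairs, with Benjamini-Hochberg adjustment over all pairs. Calls required an adjusted p below 0.05 and a difference of at least 2-fold from that median. With 1 library per state the test compares libraries and covers counting error only, and log2 values below are relative to the median pair. Simulated 4-fold changes were recovered for 199 of 200 PU.1 pairs of MPs and OCs with at least 30 tags on average, and for 183 of 200 MITF pairs with at least 15. There were 7 and 6 false calls. Comparisons with the 36 h libraries, whose peaks were wider, were not simulated.

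Few PU.1 pairs at these genes passed the test. From MPs to 36 h, 2 of 184 pairs at the 44 genes were called, against 1.05% of all pairs. One was 11667 bp upstream of Man2b1 (chr8:87595426-87595576), 113 bp from a TSS of Dhps for the merged locus, which went from 26 to 67 tags (scores 44.4 and 99.0, log2 change 1.28, adjusted p = 0.0121 by the exact binomial test). The other was 863 bp upstream of a TSS of Manba (chr3:135184961-135185111), which went from 11 to 39 tags (18.8 and 57.6, 1.74, adjusted p = 0.0229, same exact test). Its 36 h peak (chr3:135185057-135185247) was centred 747 bp upstream and overlapped the MP peak only in part. Whether the Manba peaks mark the same site was not tested. With reciprocal overlap of 50%, centres within 100 bp or at least 2 times the lowest score, the Manba pair was not among those called. The 36 h peaks of both pairs were 190 bp wide against 150 bp in MPs, and the part of width in these differences was not tested. From 36 h to OCs 0 of 196 pairs were called (0.0707% of all pairs), and 7 had an unadjusted p below 0.05 (3.57%, against 6.43% of all pairs). From MPs to OCs 0 of 203 were called (0.155% of all), and 16 had an unadjusted p below 0.05 (7.88%, against 7.83% of all pairs). The median log2 change over these 203 pairs was -0.03, with a range of -1.27 to 1.17.

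At the 44 genes, as over all MITF pairs, calls came only in comparisons with the 36 h library. From MPs to 36 h, 4 of 17 pairs were called, against 15.2% of all MITF pairs. Lipa rose from 15 to 106 tags (log2 change 2.02, adjusted p = 2.53e-07, exact binomial test). The Hexa loci rose from 16 to 58 tags (1.06, adjusted p = 0.0462, exact test) and from 13 to 55 tags (1.28, adjusted p = 0.0192, exact test). Psap at 4068 bp upstream fell by 1.32, from 36 to 25 tags where the median pair rose 1.74 times in tags (adjusted p = 0.00543, exact test).

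From 36 h to OCs, 2 of 14 pairs were called, against 9.68% of all pairs. Lipa fell by 1.56 on the log2 scale, from 106 to 17 tags (adjusted p = 0.000201, exact binomial test), and Psap at 3575 bp upstream rose by 2.01, from 11 to 21 tags (adjusted p = 0.00379, exact test). From MPs to OCs 0 of 19 pairs were called, against 0.0% of all 2843 pairs. None of the 19 had an unadjusted p below 0.05, where 92 of all pairs did, and the range of log2 changes was -0.43 to 0.85.

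Peak widths differed at several of these loci. The Lipa peak was 296 bp wide at 36 h and the Hexa peaks 189 and 219 bp, against 150 bp in MPs and OCs. Both Psap pairs were 150 bp wide in both states. When pairs were kept only if both peaks were 150 bp wide, 4 and 3 pairs were left at the 44 genes, both Psap pairs among them, and 0 were called. Of all such MITF pairs, 0 of 784 and 0 of 698 were called. That restriction leaves out every wider 36 h peak, those of Lipa and Hexa included, and it changes the median ratio, so it says nothing about their changes. Scaled to library size in place of the median pair, 6 of 17 pairs were called from MPs to 36 h, all upward, and 6 of 14 from 36 h to OCs, all downward. Of all MITF pairs 33.6% and 38.2% were called with this scaling, nearly all in the same directions. That scaling shifts the median pair by 0.70 and -0.85 on the log2 scale, and under it neither Psap change was called (log2 changes of -0.62 and 1.16). The part of width in these differences was not tested.

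**Figure D5:**
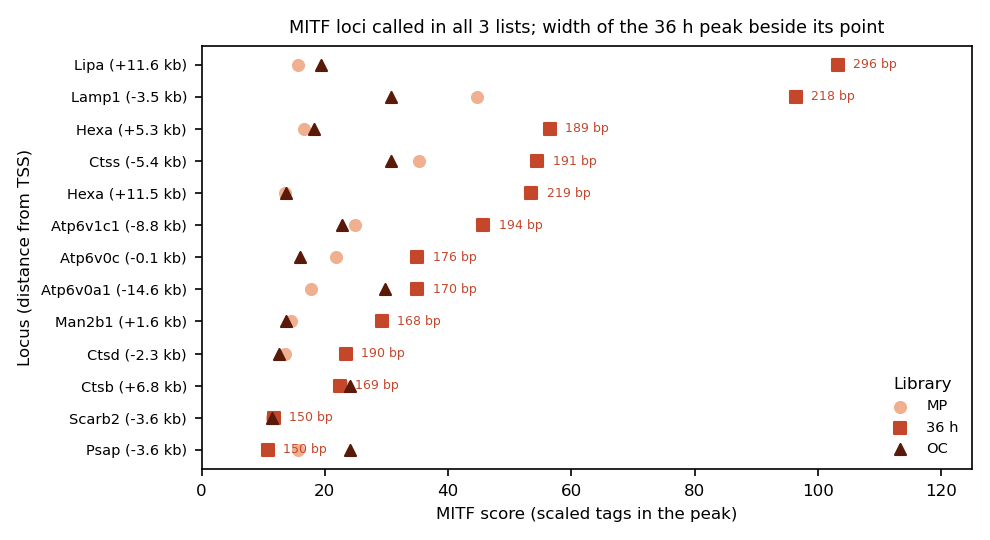
MITF score (horizontal axis, scaled tags in the peak) of the 13 loci listed in all 3 states, with the distance from the TSS in kb beside each gene name, for MPs (circles), 36 h (squares) and OCs (triangles), 1 library each. The width of each 36 h peak is printed beside its square. The 36 h scores of Lipa (103.2) and Lamp1 (96.4) stand far to the right of their MP and OC scores, and their 36 h peaks are among the wider ones, at 296 and 218 bp. Over all shared MITF pairs, tags rose 1.74 times at the median from MPs to 36 h. Lamp1 was not called as changed in any comparison.

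Further genes of the same organelle were counted in lists written by function. All 11 other V-ATPase subunit genes had PU.1 peaks, with median highest scores of 76.8, 51.7 and 52.9. Of these genes 2, 1 and 2 had MITF in MPs, at 36 h and in OCs (18.2%, 9.09% and 18.2%), shares near those of all protein-coding genes. Among these, Tcirg1, the a3 subunit of the OC proton pump, had MITF in all lists with scores of 19.7, 12.7 and 12.6. All 26 other lysosomal enzymes and proteins had PU.1 peaks, and 12, 6 and 11 had MITF (46.2%, 23.1% and 42.3%). Acp5, which encodes tartrate-resistant acid phosphatase, scored 18.7, 33.1 and 14.8 for MITF. Ctse, Fuca1, Hgsnat and Lgmn were also in all MITF lists.

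Of 22 other membrane and sorting proteins 21 had PU.1 peaks, and 10, 6 and 7 had MITF (45.5%, 27.3% and 31.8%), with Cd68, Laptm5, Ctns and Igf2r in all lists. Cd68, a heavily glycosylated protein of macrophage lysosomes, had its MITF peak on the TSS with scores of 36.4, 63.3 and 22.8. Of 19 genes of autophagy and of nutrient signalling on the lysosome, all had PU.1 peaks and 5, 5 and 3 had MITF (26.3%, 26.3% and 15.8%), the share in OCs being near that of all genes. Mitf itself was the only one of these 19 in all 3 MITF lists, with scores of 12.5, 10.7 and 14.8. Its relatives Tfeb (11.4 in MPs) and Tfec (12.5 in MPs and 36.0 at 36 h) were in some, and Tfe3 in none.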

How the data were processed

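The deposited files were 7 peak lists, 1 per ChIP-Seq library. Per the labels, the authors aligned reads to mm9 with Bowtie2 after CASAVA 1.8 and called peaks with HOMER. The HOMER version and settings are not given in the sources used here. The deposited score of each peak is a tag number that the authors' caller scaled to 10000000 tags, and fold values in the files were not used. Scores were whole multiples of 1 step per library (residual at most 0.0501 score units), which gave the tags per peak and implied depths of 5860000 to 6810000 tags for PU.1, 8760000 to 10270000 for MITF and 3120000 for IgG.

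Peak centres were assigned to every gene with a TSS within 20 kb (GENCODE vM1 annotation, mm9), so 1 peak could count for several genes. Merged loci join overlapping peaks of the 3 states. Overlap means at least 1 shared base. Shared pairs were mutual best overlaps, and their tags were compared with an exact two-sided binomial test with Benjamini-Hochberg adjustment. Motifs were sought on both strands within 100 bp of peak centres and in 300-base promoters. Python 3.11.15, numpy 2.4.6, scipy 1.17.1, pandas 2.3.3 and pysam 0.24.0 were used. The window assignment matched a direct search in 600 gene and list combinations, and the tag test was checked on simulated counts. The 44 genes and the other lists were chosen with earlier results of these data known. The text names each gene with a MITF peak, the changed pairs, the genes with the highest or lowest PU.1 scores, genes with an E-box in a peak within 1 kb, and other lysosomal genes in all 3 MITF lists, of which 1 is not reported here. Values given for other genes were chosen after they were seen. Alternatives were other windows, a minimum of 2 times the lowest score, lists of equal size, peaks over IgG removed, other pairing and scaling, and a motif window of 50 bp.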

Additional observations from a re-analysis of the deposited data

How the results depend on the processing

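Of 155 alternative values, 120 stayed on the same side of the call or within 1.5 times the value reported. The number of lysosome and V-ATPase genes with MITF in MPs, at 36 h and in OCs was 4, 3 and 5 with a 1 kb window and 12, 9 and 12 with a 5 kb window. With at least 2 times the lowest score it was 6, 13 and 8. The background shares fell too, to 2.39%, 1.44% and 1.85% at 1 kb, to 6.58%, 4.28% and 5.2% at 5 kb, and to 4.21%, 7.16% and 3.43% at 2 times the lowest score. Changed PU.1 pairs from MPs to 36 h numbered 6 with the library-size ratio (2 up, 4 down) and 1 each with reciprocal overlap of 50%, with centres within 100 bp, and with at least 2 times the lowest score. The shares called among all PU.1 pairs were 1.78%, 1.05%, 1.04% and 1.46%. Changed MITF pairs numbered 1 from MPs to 36 h and 1 from 36 h to OCs at 2 times the lowest score, 6 from 36 h to OCs with the library-size ratio, and 0 in both with 150 bp peaks only, an alternative chosen after seeing the data. The shares called among all MITF pairs were 9.89% and 8.5%, then 38.2%, and 0.0% in both. The library-size ratio moved the split of all changed MITF pairs from 245 of 380 upward to 822 of 842 from MPs to 36 h.

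Within 50 bp of the centre, MITF peaks with CACGTG or CATGTG made up 9.38% in MPs and 10.5% at 36 h. Over all MITF peaks the shares were 8.37% and 7.14%. At 2 times the lowest score, 1 of 14 peaks at 36 h held either (7.14%, against 15.8% of all MITF peaks). In OCs 0 of 8 did (0.0%, against 13.5%). Peaks with TCACGTG or TCATGTG made up 6.25% and 5.26% within 50 bp, against 3.31% and 2.43%. At 2 times the lowest score they were 0 of 7 in MPs and 0 of 8 in OCs, against 5.46% and 3.98%. So few peaks cannot show that a motif was lost. In promoters of 1000 bases TCATGTG was found for 22 of the 44 genes, against 20.4% of all genes. The cause of these shifts was not tested. No paired analysis was possible because each condition had 1 library. Counting error alone is covered, and the lists show nothing below 6 to 10 tags per peak, so a gene without a listed MITF peak may hold MITF below that limit.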
